A study of Mus musculus with 22 samples.

Results

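The genes of the lysosomal proton pump, the cathepsins and the main lysosomal membrane proteins described here are 53 of the 22180 genes tested in inguinal white fat, and were taken by name, with no measured value in the rule. The genes were nevertheless chosen with earlier results of these data known. They comprise 13 V1 and 8 V0 subunit genes, 3 accessory genes of the pump, 18 cathepsins, 5 genes of membrane proteins and channels, 3 genes of lysosomal lipid handling, and 2 transcription factors. The remaining gene is Atp6v1fnb, a neighbour of Atp6v1f (chr6:29467783-29470509) at chr6:29471437-29473429 on GRCm38.p6, which carries the pump's name but is not one of its known subunits. On the arrays 35 of the 53 had a mean signal above the median of the tested genes, a log2 value of 4.67, and 18 lay below it.

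The lysosome is the acidic compartment in which cells break down proteins, fats and organelles. Its acidity comes from the vacuolar proton pump, a rotary enzyme whose cytosolic V1 sector splits ATP and whose membrane V0 sector carries protons inward. The acidity activates the cathepsins, proteases named for their catalytic cysteine, aspartate or serine, and the transcription factors TFEB and TFE3 are known to bind E-box-like DNA near the start of many lysosomal genes.

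The study asked how cold changes this subcutaneous depot, in which beige heat-producing adipocytes can arise, with and without PPARα, a nuclear receptor for fatty acids. The male mice, on a C57BL/6J background, were 3 to 4 months old at the start, and all groups spent 5 weeks at 28 °C, near thermoneutrality. The 4 groups were PPARα-null mice at 5 °C (5 arrays), wild-type mice at 5 °C (5 arrays), null mice kept at 28 °C (6 arrays) and wild-type mice kept at 28 °C (6 arrays). Cold-exposed mice had 1 week at 21 °C and then 10 days at 5 °C. Each array held the fat of 1 mouse, and the 22 arrayed mice were part of 40 that were housed. The null mice lacked PPARα in the whole body, not in fat alone, and the genotypes came from separately acquired lines.

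Signals are log2 expression values per probe set as the authors normalized them, and changes are log2 differences of 5 °C minus 28 °C unless stated. Pairs of arrays correlated at 0.966 to 0.990. The white-adipocyte markers Adipoq (9.76 to 10.33 over the arrays) and Plin1 (10.54 to 10.97) were bright in all groups. Ucp1, the heat-producing uncoupling protein, lay between 12.25 and 12.58 at 5 °C against 4.50 and 6.47 at 28 °C. The Ppara probe set did not separate the genotypes, with log2 signals of 5.77 to 7.10 in null and 6.13 to 6.99 in wild-type mice at 5 °C, and 4.14 to 5.45 in null and 4.42 to 5.00 in wild-type mice at 28 °C. The labels do not say whether its probes cover the disrupted exon, so it does not check the genotype labels, which are taken as given. The number of arrays limits the precision, and for the 35 brighter lysosomal genes the median standard deviation between mice of 1 group was 0.102 log2 units.

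To show the DNA beside the expression values, the 250 bases before an annotated transcript start are printed for 5 genes that differ in their response to cold. The 5 were picked from the genes that hold the letters CACGTG in those bases, so each printed sequence has them by choice. For Atp6v1a and Ctsa the start used is not the gene's outermost start. Their printed bases lie within the gene's span (chr16:44085402-44139702 and chr2:164832872-164841032). Their sequences are from RefSeq (GRCm38.p6), 5′ to 3′ along the gene's strand, with each CACGTG in capitals, the core of the E-box that TFEB and TFE3 can bind. Atp6v1a (chr16:44139260-44139509, minus strand), Mcoln1 (chr8:3500269-3500518, plus strand) and Ctsd (chr7:142387828-142388077, minus strand) passed the test as higher in the cold on the average of the genotypes. Ctsa (chr2:164833523-164833772, plus strand) passed it as lower, and Lamp1 (chr8:13158911-13159160, plus strand) did not pass it.
Atp6v1a: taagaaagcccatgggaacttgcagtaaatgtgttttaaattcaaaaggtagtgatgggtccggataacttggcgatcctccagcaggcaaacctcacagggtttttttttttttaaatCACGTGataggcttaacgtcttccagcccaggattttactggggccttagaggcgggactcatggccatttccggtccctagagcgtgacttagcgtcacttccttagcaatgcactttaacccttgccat
Mcoln1: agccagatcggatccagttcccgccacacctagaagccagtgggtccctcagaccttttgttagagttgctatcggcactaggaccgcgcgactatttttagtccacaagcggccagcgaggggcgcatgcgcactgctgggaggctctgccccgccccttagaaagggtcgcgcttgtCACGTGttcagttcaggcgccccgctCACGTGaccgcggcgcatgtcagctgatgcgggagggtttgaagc
Ctsd: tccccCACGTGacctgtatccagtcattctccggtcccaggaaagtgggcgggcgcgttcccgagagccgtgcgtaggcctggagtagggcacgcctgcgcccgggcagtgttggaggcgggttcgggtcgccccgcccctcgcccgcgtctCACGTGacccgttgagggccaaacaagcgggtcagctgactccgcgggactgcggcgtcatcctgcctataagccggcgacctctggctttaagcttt
Ctsa: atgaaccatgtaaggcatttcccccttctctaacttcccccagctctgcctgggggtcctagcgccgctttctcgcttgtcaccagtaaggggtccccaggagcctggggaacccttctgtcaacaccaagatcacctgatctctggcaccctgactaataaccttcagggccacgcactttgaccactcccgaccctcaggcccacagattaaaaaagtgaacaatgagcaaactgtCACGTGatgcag
Lamp1: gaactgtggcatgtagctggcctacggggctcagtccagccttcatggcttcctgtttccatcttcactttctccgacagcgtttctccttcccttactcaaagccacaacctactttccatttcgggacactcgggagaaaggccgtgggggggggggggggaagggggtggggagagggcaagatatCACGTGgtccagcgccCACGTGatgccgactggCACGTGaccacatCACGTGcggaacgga

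In the cold most of the pump genes that changed rose, and most of the proteases that changed fell. Among the 21 genes of the V1 and V0 sectors, 7 rose and 2 fell in null mice and 6 rose and 1 fell in wild-type mice. Among the 18 cathepsins, 1 rose and 7 fell in null mice, and 0 rose and 9 fell in wild-type mice. A gene passed where limma's moderated test, adjusted by Benjamini-Hochberg for all tested genes, gave a p under 0.05. Over all 53 genes 9 rose and 10 fell in null mice, where 6.88% of all tested genes rose and 6.33% fell, and 7 rose and 12 fell in wild-type mice, where 8.35% rose and 8.3% fell. The calls lay among the 35 brighter genes, and of all genes above the median signal 12.3% rose and 11.7% fell in null mice, and 14.1% rose and 15.2% fell in wild-type mice. The median change over the 53 genes was -0.055 in null and 0.011 in wild-type mice, beside -0.003 and 0.009 over all genes.

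The null counts were the less stable: without replicate 4 of the null mice at 5 °C 5 genes rose instead of 9, and without replicate 1 of that group 6 fell instead of 10. The arrays of 5 °C and 28 °C did not overlap for 5 higher and 6 lower genes in null mice (all genes, 5.05% and 4.06%) and for 7 higher and 11 lower genes in wild-type mice (all genes, 6.27% and 5.53%). Both genotypes shared 7 of the rises (Atp6v1a, Atp6v1d, Atp6v1e1, Atp6v1h, Atp6v0a2, Atp6v0e and Lipa) and 9 of the falls (Atp6v0e2, Ctsa, Ctsc, Ctsf, Ctsh, Ctsk, Ctso, Ctss and Npc2). The share of all tested genes called in both genotypes is not given here. Whether the lysosomal genes shared calls more often than genes in general was not tested. Averaged over the genotypes, 12 lysosomal genes rose and 15 fell, where 11.7% and 13.1% of all genes did so.

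**Figure D1:**
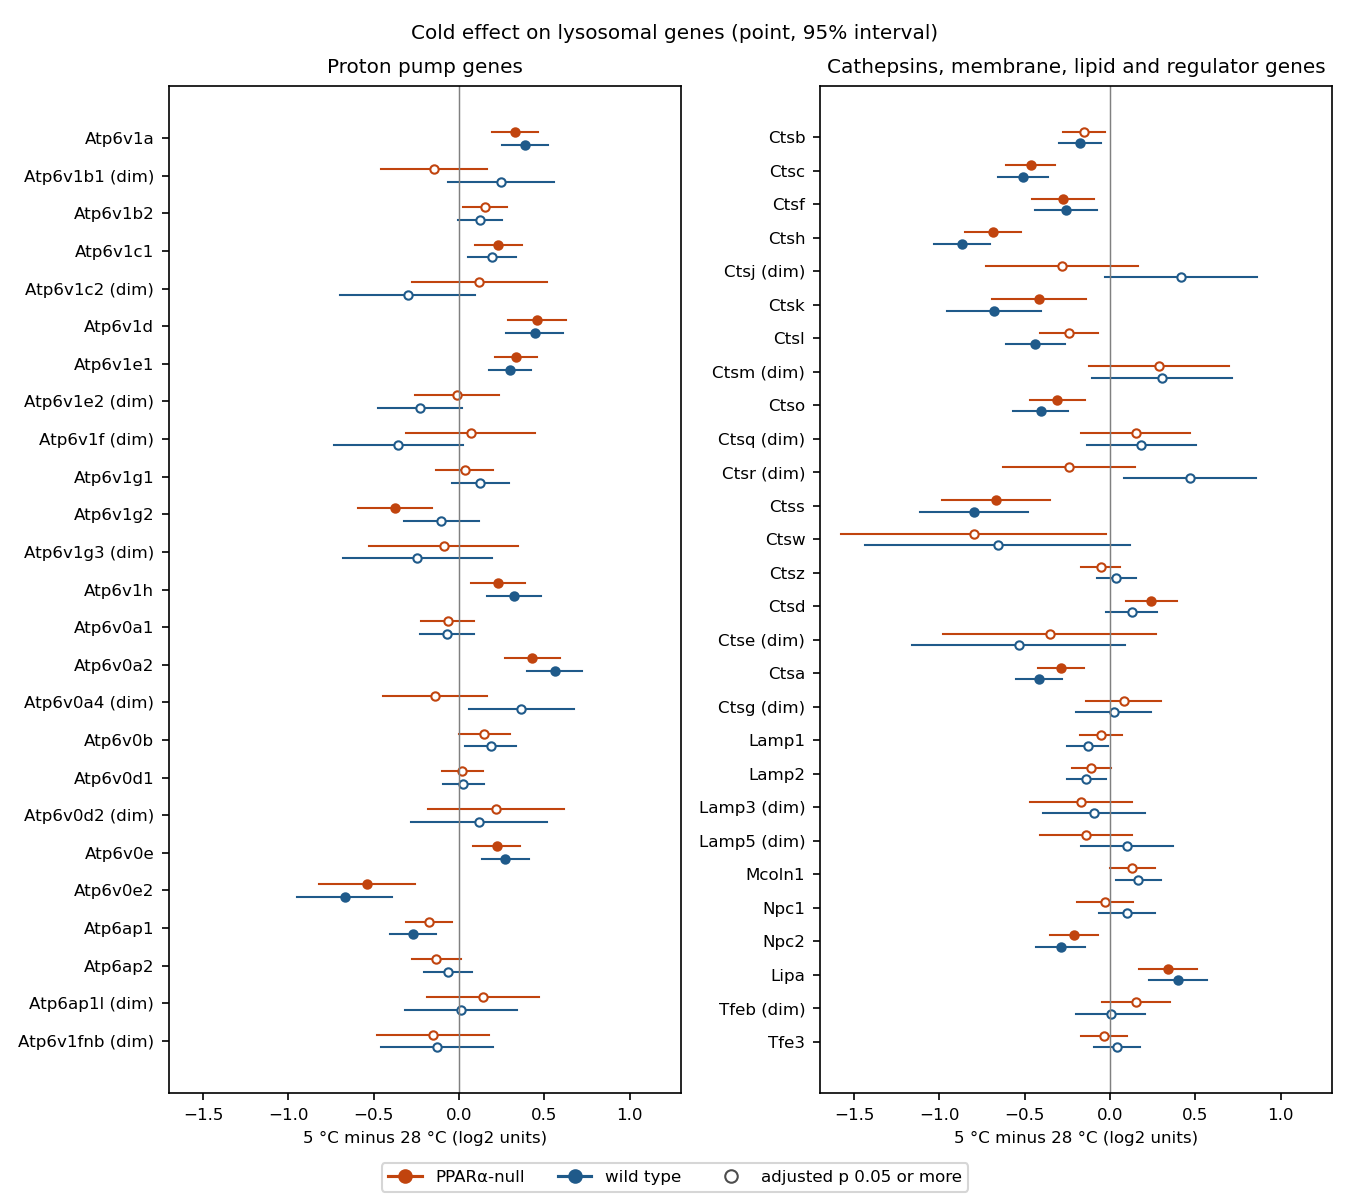
Cold effect (5 °C minus 28 °C, log2 units) of each of the 53 genes, with PPARα-null mice above wild-type mice in each row. Points are estimates, lines 95% intervals, filled points have an adjusted p under 0.05, and genes marked dim had a mean signal below the median of all tested genes. Filled points lie mostly to the right of 0 for pump genes and mostly to the left for cathepsins.

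In the V1 sector the genes of 4 subunits rose in both genotypes, 1 each of the catalytic head, the rotor, the peripheral stalks and the regulatory arm. Atp6v1d encodes the rotor subunit that joins the catalytic head to the membrane ring. Its log2 values were 8.06, 7.76, 7.91, 8.19 and 7.95 in null mice at 5 °C, against a lowest of 7.33, a median of 7.54 and a highest of 7.63 in null mice at 28 °C. In wild-type mice they were 8.09, 7.93, 7.80, 8.01 and 8.10 at 5 °C, against a lowest of 7.40, a median of 7.57 and a highest of 7.62 at 28 °C. Every cold-exposed mouse lay above every mouse of its genotype at 28 °C, and the change was 0.46 (SE 0.08) in null mice (1.37-fold, limma adjusted p = 0.000395) and 0.44 (SE 0.08) in wild-type mice (1.36-fold, limma adjusted p = 0.000427).

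Atp6v1a encodes the subunit that splits ATP. It gave log2 values of 8.28, 8.08, 8.23, 8.28 and 8.30 in null mice at 5 °C, against a lowest of 7.78, a median of 7.87 and a highest of 8.15 at 28 °C. Wild-type mice had 8.20, 8.27, 8.25, 8.19 and 8.27 at 5 °C, against a lowest of 7.79, a median of 7.85 and a highest of 7.91 at 28 °C. The wild-type groups did not overlap, whereas 1 null mouse at 28 °C reached the range of the cold-exposed null mice. The change was 0.33 (SE 0.07) in null mice (limma adjusted p = 0.00115) and 0.39 (SE 0.07) in wild-type mice (limma adjusted p = 0.000178).

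Atp6v1e1, a peripheral-stalk subunit that holds the head still while the rotor turns, had log2 values of 9.10, 9.22, 9.15, 9.31 and 9.16 in null mice at 5 °C, against a lowest of 8.73, a median of 8.86 and a highest of 8.94 at 28 °C. In wild-type mice it had 9.13, 9.08, 9.16, 9.26 and 9.22 at 5 °C, against a lowest of 8.82, a median of 8.85 and a highest of 8.96 at 28 °C. Neither genotype's groups overlapped, and the change was 0.33 (SE 0.06) in null mice (limma adjusted p = 0.000409) and 0.30 (SE 0.06) in wild-type mice (limma adjusted p = 0.000934).

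Atp6v1h encodes a regulatory subunit that couples or stalls the enzyme. It showed log2 values of 7.32, 7.37, 7.51, 7.61 and 7.47 in null mice at 5 °C, against a lowest of 7.13, a median of 7.21 and a highest of 7.43 at 28 °C. They were 7.43, 7.57, 7.57, 7.57 and 7.55 in wild-type mice at 5 °C, against a lowest of 6.96, a median of 7.26 and a highest of 7.33 at 28 °C. The rise was 0.32 (SE 0.08) without overlap in wild-type mice (limma adjusted p = 0.00444). In null mice it was 0.23 (SE 0.08) with overlapping groups, at an adjusted p of 0.0489 that was lost under 21 of 31 alternative settings, where it reached 0.145.

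Some other V1 genes passed in part. Atp6v1c1, a stalk subunit that regulates assembly of the pump, rose by 0.23 (SE 0.07) in null mice (limma adjusted p = 0.0242, lost under 4 of 31 alternatives, where it reached 0.0831) and had 0.19 (SE 0.07) in wild-type mice (limma adjusted p = 0.0512). Atp6v1b2, the non-catalytic partner of the A subunit in most tissues, passed on the average of the genotypes only, at 0.14 (SE 0.04, limma adjusted p = 0.0253, lost under 5 of 30 alternatives, where it reached 0.102). The exception in direction was Atp6v1g2, a stalk subunit isoform best known from neurons. Atp6v1g2 had log2 values of 5.09, 5.48, 5.36, 5.13 and 5.35 in null mice at 5 °C, against a lowest of 5.45, a median of 5.69 and a highest of 5.84 at 28 °C, a change of -0.37 (SE 0.10, limma adjusted p = 0.019) with overlapping groups. That call was lost without replicate 1 or replicate 4 of the null mice at 5 °C, where p reached 0.0656. Its change in wild-type mice was -0.10 (SE 0.10, limma adjusted p = 0.579). The widely expressed isoform of that stalk subunit, Atp6v1g1, had changes of 0.03 in null and 0.12 in wild-type mice and passed in neither. Its dimmer probe sets, which were not used, went the other way, at -0.13 and -0.21 in null and -0.11 and -0.18 in wild-type mice.

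The remaining V1 genes, Atp6v1b1, Atp6v1c2, Atp6v1e2, Atp6v1g3 and the rotor gene Atp6v1f, lay below the median signal, and 0 of these 5 passed in either genotype. Atp6v1b1, Atp6v1c2 and Atp6v1g3 are isoforms best known from acid-secreting epithelia such as that of the kidney, and Atp6v1e2 is best known from testis. Their changes ranged from -0.15 to 0.12 in null mice and from -0.36 to 0.25 in wild-type mice. Atp6v1f belongs to every form of the pump, so its dim probe set is a limit of this measurement.

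**Figure D2:**
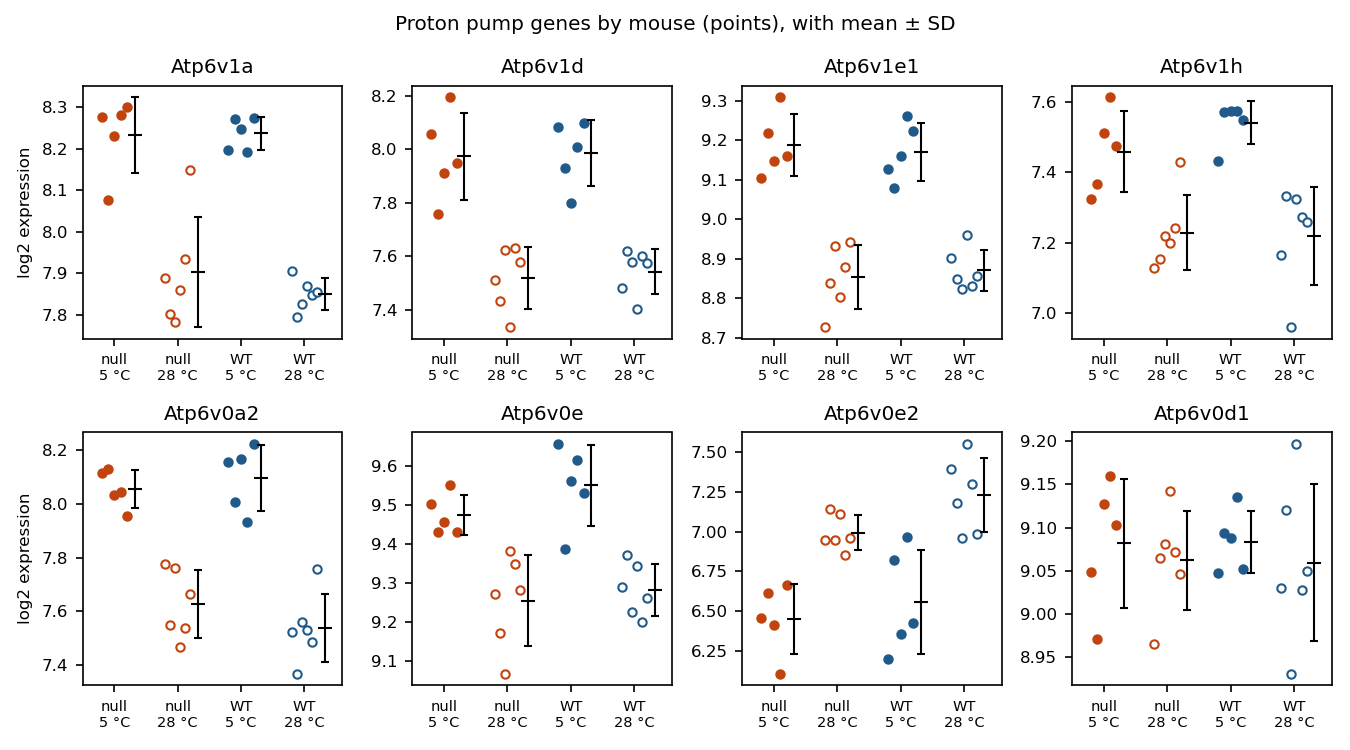
Log2 expression of 8 proton pump genes in each mouse (points), with mean ± SD to the right of the points of each group. The 4 V1 genes in the top row and Atp6v0a2 and Atp6v0e lie higher at 5 °C in both genotypes, Atp6v0e2 lies lower, and the values of Atp6v0d1 overlap between temperatures. Each panel has its own vertical scale, which does not start at 0.

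The V0 sector was split between genes that rose, fell and did not pass. Atp6v0a2 encodes 1 of several versions of the large a subunit, which forms the proton path and directs the pump to particular membranes. Its log2 values were 8.12, 8.13, 8.03, 8.04 and 7.95 in null mice at 5 °C, against a lowest of 7.47, a median of 7.61 and a highest of 7.78 at 28 °C. Wild-type mice gave 8.16, 8.01, 8.17, 7.93 and 8.22 at 5 °C, against a lowest of 7.37, a median of 7.53 and a highest of 7.76 at 28 °C. With no overlap in either genotype, the rise was 0.43 (SE 0.08) in null mice (1.35-fold, limma adjusted p = 0.000506) and 0.56 (SE 0.08) in wild-type mice (1.47-fold, limma adjusted p = 2.02e-05). Atp6v0a1, another version of the a subunit, had -0.07 (SE 0.08) in null and -0.07 (SE 0.08) in wild-type mice (limma adjusted p = 0.665 and 0.599).

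The small e subunit exists in 2 versions, and these moved in opposite directions. Atp6v0e, the widely expressed version, gave log2 values of 9.50, 9.43, 9.46, 9.55 and 9.43 in null mice at 5 °C, against a lowest of 9.07, a median of 9.28 and a highest of 9.38 at 28 °C. Wild-type mice had 9.66, 9.39, 9.56, 9.62 and 9.53 at 5 °C, against a lowest of 9.20, a median of 9.27 and a highest of 9.37 at 28 °C. The groups did not overlap, and the rise was 0.22 (SE 0.07) in null mice (limma adjusted p = 0.0291, lost under 5 of 31 alternatives, where it reached 0.0913) and 0.27 (SE 0.07) in wild-type mice (limma adjusted p = 0.00623).

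Atp6v0e2 had log2 values of 6.46, 6.61, 6.42, 6.11 and 6.67 in null mice at 5 °C, against a lowest of 6.85, a median of 6.96 and a highest of 7.14 at 28 °C. In wild-type mice the values were 6.20, 6.83, 6.36, 6.97 and 6.43 at 5 °C, against a lowest of 6.96, a median of 7.24 and a highest of 7.55 at 28 °C. The null groups did not overlap and the wild-type groups touched at 1 cold-exposed mouse. The change was -0.54 (SE 0.13) in null mice (0.687-fold, limma adjusted p = 0.00839) and -0.67 (SE 0.13) in wild-type mice (0.628-fold, limma adjusted p = 0.00106).

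Atp6v0b, which encodes a proton-carrying ring subunit, passed on the average of the genotypes at 0.17 (SE 0.05, limma adjusted p = 0.0193), with 0.15 in null and 0.18 in wild-type mice. Atp6v0d1, which links the ring to the rotor, had changes of 0.02 (SE 0.06) in null and 0.02 (SE 0.06) in wild-type mice, with 95% intervals of -0.10 to 0.14 and -0.10 to 0.14. The dim genes Atp6v0a4, known from kidney, and Atp6v0d2, known from osteoclasts, did not pass in either genotype (Atp6v0a4 -0.14 in null and 0.36 in wild-type mice, Atp6v0d2 0.22 in null and 0.12 in wild-type mice).

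None of the accessory genes rose. Atp6ap1, needed for assembly of V0, had log2 values of 9.25, 9.43, 9.32, 9.50 and 9.23 in null mice at 5 °C, against a lowest of 9.45, a median of 9.52 and a highest of 9.58 at 28 °C. Wild-type mice had 9.33, 9.19, 9.18, 9.43 and 9.22 at 5 °C, against a lowest of 9.46, a median of 9.53 and a highest of 9.63 at 28 °C. The fall passed in wild-type mice without overlap (-0.27, SE 0.07, limma adjusted p = 0.00515), and the null change was -0.18 (SE 0.07, limma adjusted p = 0.0816). Atp6ap2, the prorenin receptor, had -0.13 (SE 0.07) in null and -0.07 (SE 0.07) in wild-type mice (limma adjusted p = 0.242 and 0.584). The dim Atp6ap1l and Atp6v1fnb did not pass, with 0.14 and -0.15 in null mice and 0.01 and -0.13 in wild-type mice.

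Most of the brighter cathepsins fell in the cold. Of the 14 cysteine cathepsins 6 fell in null mice and 8 in wild-type mice, and 0 rose in either. Ctsh, an aminopeptidase, had the smallest p of the 53 genes in the average cold effect. Its log2 values were 7.17, 7.09, 7.38, 7.28 and 7.13 in null mice at 5 °C, against a lowest of 7.78, a median of 7.85 and a highest of 8.03 at 28 °C. Wild-type mice had 7.37, 7.15, 7.12, 6.93 and 7.09 at 5 °C, against a lowest of 7.90, a median of 7.99 and a highest of 8.17 at 28 °C. The groups did not overlap in either genotype, with changes of -0.69 (SE 0.08) in null mice (0.621-fold, limma adjusted p = 2.33e-06) and -0.87 (SE 0.08) in wild-type mice (0.548-fold, limma adjusted p = 8.08e-08).

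Ctsc encodes dipeptidyl peptidase I, which activates the granule proteases of immune cells. It gave log2 values of 9.08, 8.94, 9.11, 9.16 and 8.93 in null mice at 5 °C, against a lowest of 9.33, a median of 9.52 and a highest of 9.63 at 28 °C. In wild-type mice they were 9.08, 9.27, 8.98, 9.02 and 8.99 at 5 °C, against a lowest of 9.50, a median of 9.59 and a highest of 9.64 at 28 °C. There was no overlap, and the change was -0.47 (SE 0.07) in null mice (limma adjusted p = 6.29e-05) and -0.51 (SE 0.07) in wild-type mice (limma adjusted p = 1.74e-05).

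Ctss encodes a protease that trims the invariant chain in antigen-presenting cells, and its gene lies beside Ctsk, that of the collagen-degrading cathepsin of osteoclasts, on chromosome 3 (chr3:95526786-95556405 and chr3:95499210-95509387). Ctss had log2 values of 8.08, 8.10, 8.70, 8.42 and 8.00 in null mice at 5 °C, against a lowest of 8.65, a median of 8.83 and a highest of 9.40 at 28 °C. Wild-type values were 8.28, 8.00, 8.08, 8.14 and 8.12 at 5 °C, against a lowest of 8.49, a median of 8.90 and a highest of 9.45 at 28 °C. The null groups overlapped through 1 high cold-exposed mouse, and the wild-type groups did not overlap. The change of Ctss was -0.67 (SE 0.15) in null mice (limma adjusted p = 0.00404) and -0.80 (SE 0.15) in wild-type mice (limma adjusted p = 0.000651), and that of Ctsk -0.42 (SE 0.13) in null mice (limma adjusted p = 0.0411, lost under 8 of 31 alternatives, where it reached 0.133) and -0.68 (SE 0.13) in wild-type mice (limma adjusted p = 0.000847).

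Ctso, a little-studied lysosomal protease, had log2 values of 7.90, 8.27, 8.33, 8.23 and 8.24 in null mice at 5 °C, against a lowest of 8.43, a median of 8.50 and a highest of 8.61 at 28 °C. Wild-type mice showed 8.22, 8.03, 8.23, 8.16 and 8.23 at 5 °C, against a lowest of 8.42, a median of 8.60 and a highest of 8.75 at 28 °C. Groups were separate in both genotypes, at -0.31 (SE 0.08) in null mice (limma adjusted p = 0.00814) and -0.41 (SE 0.08) in wild-type mice (limma adjusted p = 0.000569). The broadly expressed Ctsl fell in wild-type mice (-0.44, SE 0.08, limma adjusted p = 6e-04) and had -0.24 (SE 0.08) in null mice (limma adjusted p = 0.0598). Ctsf passed as lower in both, at -0.28 in null and -0.26 in wild-type mice, with calls lost under 10 and 17 of 31 alternatives, where limma's adjusted p reached 0.123 and 0.111. Ctsb, another broadly expressed protease, averaged a log2 value of 12.13 ± 0.04 at 5 °C and 12.31 ± 0.08 at 28 °C in wild-type mice (SD, n = 5 and 6), with a change of -0.18 (SE 0.06) whose limma adjusted p of 0.0455 was lost under 19 of 31 alternatives, where it reached 0.17. In null mice Ctsb had -0.15 (SE 0.06, limma adjusted p = 0.107).

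Ctsz, a carboxypeptidase, was the bright cysteine cathepsin that did not pass in either genotype or on average, at -0.05 (SE 0.05) in null mice (95% interval -0.17 to 0.06) and 0.04 (SE 0.05) in wild-type mice (95% interval -0.08 to 0.15). Ctsj, Ctsm, Ctsq and Ctsr, rodent cathepsins known from placenta that lie together on chromosome 13, were dim, and 0 of the 4 passed. Their changes lay between -0.28 and 0.29 in null mice and between 0.18 and 0.47 in wild-type mice.

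Ctsw, a cathepsin of T and natural killer cells, passed on the average of the genotypes alone (-0.73, SE 0.26, limma adjusted p = 0.0475, lost under 18 of 30 alternatives, where it reached 0.0999). Its log2 values were 3.88, 4.35, 5.74, 5.37 and 4.46 in null mice at 5 °C, against a lowest of 4.74, a median of 5.38 and a highest of 6.92 at 28 °C, and 4.96, 4.50, 4.45, 4.87 and 4.75 in wild-type mice at 5 °C, against a lowest of 4.73, a median of 5.06 and a highest of 6.52 at 28 °C. Ctsw had the widest spread of the 53 genes, with a within-group standard deviation of 0.667. The mice with the highest Ctsw at 28 °C, null replicate 1 and wild-type replicate 3, also had the highest mean log2 signals of the B and T cell markers (7.515 and 6.972, against 4.066 to 6.431 in the other 20 arrays), and the part of lymphocytes in this result was not tested. The same 2 mice had the highest log2 values of Ctse, an aspartic protease of immune cells and stomach, at 5.82 in the null and 6.10 in the wild-type mouse.

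**Figure D3:**
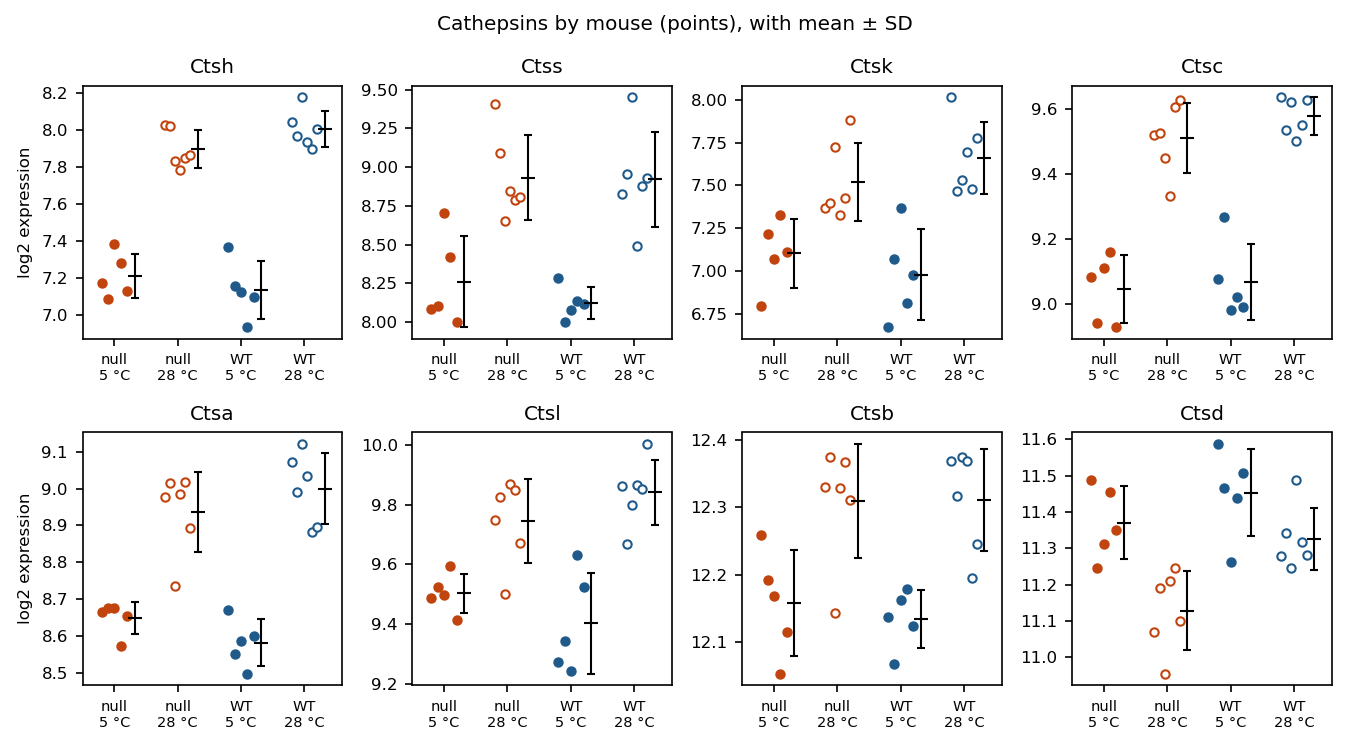
Log2 expression of 8 cathepsins in each mouse (points), with mean ± SD to the right of the points of each group. Ctsh, Ctsc and Ctsa are lower at 5 °C with no overlap in either genotype, while Ctsd is higher on average. Each panel has its own vertical scale, which does not start at 0.

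Ctsd was the cathepsin that rose. It encodes the main aspartic protease of the lysosome. Ctsd had log2 values of 11.49, 11.25, 11.31, 11.46 and 11.35 in null mice at 5 °C, against a lowest of 10.96, a median of 11.14 and a highest of 11.25 at 28 °C. Wild-type mice had 11.59, 11.47, 11.26, 11.44 and 11.51 at 5 °C, against a lowest of 11.25, a median of 11.30 and a highest of 11.49 at 28 °C. In null mice the groups met at 11.25 and the rise was 0.24 (SE 0.07, limma adjusted p = 0.0285, lost under 6 of 31 alternatives, where it reached 0.144). In wild-type mice they overlapped and the change was 0.13 (SE 0.07, limma adjusted p = 0.268). The other aspartic member, Ctse, did not pass (-0.35 in null and -0.54 in wild-type mice).

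Ctsa, a serine carboxypeptidase that also protects the enzymes beta-galactosidase and neuraminidase, followed the cysteine cathepsins. Its log2 values were 8.67, 8.68, 8.68, 8.57 and 8.65 in null mice at 5 °C, against a lowest of 8.74, a median of 8.98 and a highest of 9.02 at 28 °C. They were 8.67, 8.55, 8.59, 8.50 and 8.60 in wild-type mice at 5 °C, against a lowest of 8.88, a median of 9.01 and a highest of 9.12 at 28 °C. The groups were separate in both genotypes, at -0.29 (SE 0.06) in null mice (limma adjusted p = 0.00351) and -0.42 (SE 0.06) in wild-type mice (limma adjusted p = 6.73e-05). Ctsg, a serine protease of neutrophil granules, was dim and did not pass (0.08 in null and 0.02 in wild-type mice).

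Markers of macrophages, cells rich in cathepsins, moved with these falls. Of 17 macrophage markers, 14 fell in null mice and 12 in wild-type mice, with 0 rises and median changes of -0.606 and -0.653. Their summed linear signal was 4080 to 5090 in null mice at 5 °C against 6200 to 7570 at 28 °C, and 4030 to 4850 in wild-type mice at 5 °C against 6320 to 7400 at 28 °C. The dimmest was Clec4f, a marker of liver macrophages, with group means of 3.53 to 3.91. C1qb led by p, at -0.61 in null and -0.72 in wild-type mice, followed by Mrc1 (-0.63 and -0.70). In whole fat, fewer cells of a type and less RNA per cell cannot be told apart, and the part of macrophages in the cathepsin result was not tested.

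Fibroblast and preadipocyte genes fell too, 8 of 9 in each genotype, with a summed linear signal of 7030 to 7530 in null mice at 5 °C against 10200 to 11700 at 28 °C, and 6730 to 7620 in wild-type mice at 5 °C against 10400 to 12100 at 28 °C. Markers of lipid-associated macrophages and osteoclasts, cells known for high Ctsk and Atp6v0d2, numbered 10, of which 2 fell in null and 3 in wild-type mice. Median changes of these 10 were -0.095 and -0.091, and averaged over the genotypes 1 rose and 4 fell. In each group 5 or 6 of the 10 lay below the median signal. Mast cell markers, 8 in number, gave 0 calls in null mice and 4 falls in wild-type mice, with median changes of -0.063 and -0.519. Their summed linear signal was 434 to 599 in null mice at 5 °C against 515 to 730 at 28 °C, and 409 to 578 in wild-type mice at 5 °C against 652 to 1060 at 28 °C. The 4 that fell in wild-type mice were the proteases Mcpt4 (-1.07 in wild-type mice), Cpa3 (-0.83), Cma1 (-0.72) and Tpsb2 (-0.68). Fcer1a, a subunit of the mast cell IgE receptor, was dim in each group (means of 1.73 to 1.91). Averaged over the genotypes, 1 of the 8 mast cell markers rose and 4 fell.

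Markers of B and T cells (11) gave 0 calls in either genotype, but their median changes, -0.614 in null and -0.588 in wild-type mice, were about as large as those of the macrophage markers. Their signal varied widely between mice, with sums of 223 to 1500 in null mice at 5 °C against 317 to 3470 at 28 °C, and 252 to 714 in wild-type mice at 5 °C against 287 to 2390 at 28 °C. Dendritic cell markers (7) also gave 0 calls in either genotype and 1 fall on the average, with medians of -0.277 in null and -0.418 in wild-type mice. Their sums were 326 to 688 in null mice at 5 °C against 361 to 1130 at 28 °C, and 307 to 483 in wild-type mice at 5 °C against 348 to 912 at 28 °C. Of 6 endothelial markers 0 rose and 1 fell in null mice, and 1 rose and 1 fell in wild-type mice. The epithelial (5) and skeletal muscle (10) markers gave 0 calls in either genotype, with medians of 0.063 and 0.498 in null mice and of -0.027 and -0.678 in wild-type mice. Muscle signal varied widely between mice. Its sums were 1230 to 13400 in null mice at 5 °C against 804 to 6250 at 28 °C. In wild-type mice they were 1150 to 23400 at 5 °C against 2380 to 15300 at 28 °C. Null minus wild type at 28 °C, the muscle median was -1.625, with 0 calls. The part of these cell types in the cathepsin result was not tested.

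None of the membrane and channel genes passed in either genotype alone. Mcoln1, the calcium channel TRPML1, had log2 values of 7.69, 7.71, 7.68, 7.74 and 7.65 in null mice at 5 °C, against a lowest of 7.40, a median of 7.55 and a highest of 7.72 at 28 °C. Wild-type mice had 7.79, 7.77, 7.67, 7.63 and 7.78 at 5 °C, against a lowest of 7.43, a median of 7.57 and a highest of 7.66 at 28 °C. Groups overlapped in both genotypes, and it passed on their average alone (0.15, SE 0.05, limma adjusted p = 0.0184). Lamp2, a membrane glycoprotein that also serves as receptor in chaperone-mediated autophagy, passed on the average in the other direction (-0.12, SE 0.04, limma adjusted p = 0.0221, lost under 2 of 30 alternatives, where it reached 0.159), with -0.11 in null and -0.14 in wild-type mice.

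Lamp1, the abundant glycoprotein used as a marker of lysosomes, gave log2 values of 10.56, 10.53, 10.59, 10.48 and 10.56 in null mice at 5 °C, against a lowest of 10.52, a median of 10.61 and a highest of 10.65 at 28 °C. Wild-type mice gave 10.51, 10.61, 10.47, 10.54 and 10.50 at 5 °C, against a lowest of 10.55, a median of 10.65 and a highest of 10.85 at 28 °C. The groups overlapped, and the changes were -0.05 (SE 0.06) in null mice (95% interval -0.17 to 0.07, limma adjusted p = 0.671) and -0.13 (SE 0.06) in wild-type mice (95% interval -0.25 to -0.01, limma adjusted p = 0.141). Lamp3, known from mature dendritic cells, and Lamp5, known from neurons, were dim and did not pass (-0.17 and -0.14 in null mice, -0.10 and 0.10 in wild-type mice).

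Of the lipid-handling genes, Lipa passed as higher and Npc2 as lower in both genotypes, although the null groups of Npc2 overlapped and its null call was lost under 12 of 31 alternatives. Lipa encodes lysosomal acid lipase, which frees fatty acids and cholesterol from lipids delivered to the lysosome. Lipa had log2 values of 9.69, 9.38, 9.34, 9.54 and 9.51 in null mice at 5 °C, against a lowest of 9.05, a median of 9.13 and a highest of 9.34 at 28 °C. Wild-type mice had 9.71, 9.45, 9.51, 9.43 and 9.79 at 5 °C, against a lowest of 9.10, a median of 9.16 and a highest of 9.33 at 28 °C. Null groups met at 9.34, wild-type groups were separate, and the rise was 0.34 (SE 0.08) in null mice (1.26-fold, limma adjusted p = 0.00597) and 0.40 (SE 0.08) in wild-type mice (1.32-fold, limma adjusted p = 0.00119).

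Npc2, a soluble protein that binds the cholesterol freed in the lysosome, had log2 values of 10.21, 10.12, 10.14, 10.29 and 10.14 in null mice at 5 °C, against a lowest of 10.18, a median of 10.38 and a highest of 10.57 at 28 °C. In wild-type mice it had 10.36, 10.28, 10.13, 10.32 and 10.30 at 5 °C, against a lowest of 10.51, a median of 10.57 and a highest of 10.61 at 28 °C. The change was -0.29 (SE 0.07) without overlap in wild-type mice (limma adjusted p = 0.00434), and -0.21 (SE 0.07) in null mice (limma adjusted p = 0.0413), a call lost under 12 of 31 alternatives, where p reached 0.143. Npc1, the membrane protein to which Npc2 hands cholesterol, had -0.03 (SE 0.08) in null and 0.10 (SE 0.08) in wild-type mice (limma adjusted p = 0.888 and 0.444).

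The transcripts of the 2 transcription factors did not pass. Tfe3 had log2 values of 7.48, 7.66, 7.57, 7.37 and 7.47 in null mice at 5 °C, against a lowest of 7.46, a median of 7.53 and a highest of 7.64 at 28 °C, and 7.60, 7.54, 7.66, 7.68 and 7.49 in wild-type mice at 5 °C, against a lowest of 7.48, a median of 7.54 and a highest of 7.69 at 28 °C. Its changes were -0.03 (SE 0.06) in null mice (95% interval -0.17 to 0.10) and 0.04 (SE 0.06) in wild-type mice (95% interval -0.09 to 0.17). Tfeb was dim, with 0.15 (SE 0.10) in null and 0.00 (SE 0.10) in wild-type mice. The activity of both proteins is known to be set by their entry into the nucleus, which arrays do not measure.

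CACGTG occurred on either strand in a window from 250 bases before to 50 after an annotated start in 10 of the 41 lysosomal genes with a RefSeq promoter, 24.4%, and in 8.09% of 27025 genes. The 41 genes had 47 such windows, since some have several annotated starts. Atp6v0b, Atp6v0d1, Atp6v0e, Atp6v1a, Ctsa, Ctsd, Ctsf, Ctsl, Lamp1 and Mcoln1 carried it. On the average of the genotypes 5 of these 10 rose, 3 fell and 2 did not pass. Of all 53 lysosomal genes 12 rose and 15 fell, and of all tested genes 11.7% rose and 13.1% fell. Genes with the same letters moved either way, and whether the letters go with a direction was not tested. The longer TCACGTGA, which contains CACGTG, stood in 6 of the 41 (14.6%) and in 1.12% of all genes. Of these 6, 4 rose, 1 fell and 1 did not pass on the average of the genotypes. The full palindromic CLEAR element stood in 0 of the 41 and 0.37% of all genes. The direct repeat known as DR1, the PPAR response element, was searched only as its exact consensus in the same windows. That consensus stood in 0 of the 41 and 0.0481% of all genes. It was so rare among all genes that 0 of 41 cannot show whether these genes have PPAR response elements. Among the printed sequences, Lamp1 held 4 copies, at -61, -45, -28 and -15, and did not pass the test, while Atp6v1a held 1 copy at -131 and rose. These matches describe letters, not bound sites, and the 41 genes were not chosen at random.

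**Figure D4:**
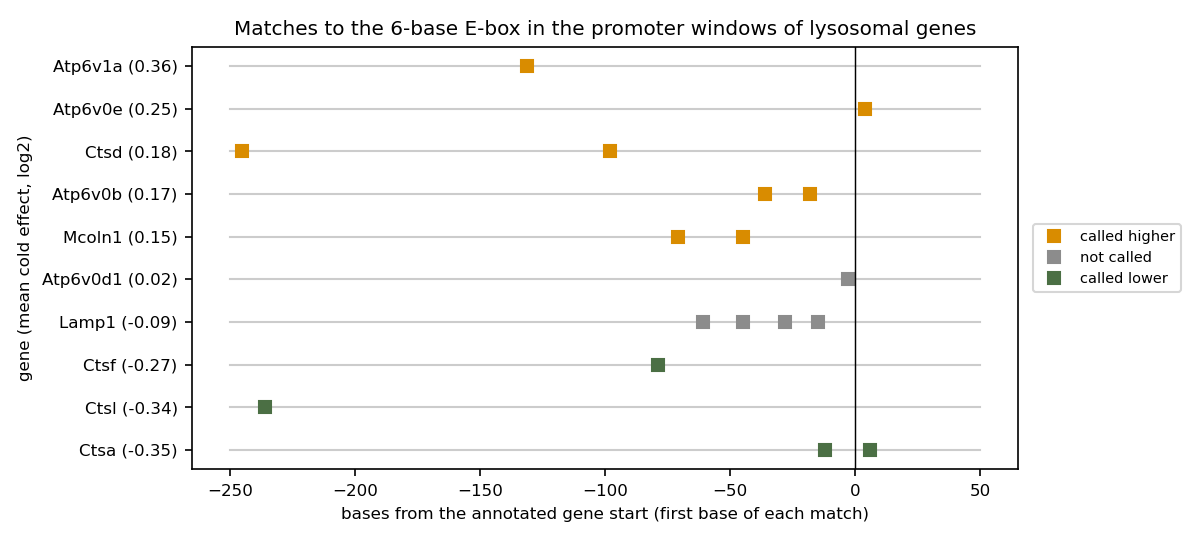
Position of each CACGTG match, by its first base relative to the annotated transcript start of its window, in the 10 lysosomal genes that hold a match. Genes run from the highest to the lowest mean cold effect (log2, in brackets) and are coloured by their call on the average of the genotypes. Genes that rose, fell or did not pass carry matches close to the start.

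The genotype comparison asked whether loss of PPARα alters these genes or their response to cold. The difference of the cold effects (null minus wild type) passed for 0 of the 53 genes, as it did for 0% of all genes, where limma's adjusted p was nowhere below 0.688 and the unadjusted p was under 0.05 for 1137 genes. Of the 35 brighter genes, 30 had a 95% interval of this difference within 0.5 log2 units of 0 and 11 within 0.25. For Ctsh the interval was -0.05 to 0.42, for Atp6v0a2 -0.36 to 0.10, for Ctsl -0.05 to 0.44 and for Lipa -0.30 to 0.18. The wild-type effect was the larger in size for 13 of the 16 genes called in both genotypes, which is a count with no test. The same count over all genes is not given here. Of all tested genes, 8.35% rose and 8.3% fell in wild-type mice, beside 6.88% and 6.33% in null mice.

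At 5 °C, null against wild type passed for 0 of the 53 genes by limma (beside 0.149% of all genes called). At an unadjusted p under 0.05 there were 3 of the 53, a share no higher than the 6.65% of all genes (1476) at that level. The smallest adjusted p was 0.618 for the dim Atp6v1f (0.49, SE 0.19). At 28 °C it passed for 0 of the 53 by limma (beside 0.194% of all genes called), with 3 at an unadjusted p under 0.05, again no higher a share than the 6.74% of all genes (1496). The smallest adjusted p there was 0.389, for the dim Atp6v1b1 (0.47, SE 0.14), followed by 0.512 for Ctsd (-0.20, SE 0.07) and 0.562 for Npc2 (-0.18, SE 0.07).

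Other lysosomal genes were taken by function. Of 31 further genes, mainly of hydrolases and their activators, 1 rose and 8 fell in null mice and 2 rose and 12 fell in wild-type mice, with median changes of -0.128 and -0.127. They were led by Ppt1, which removes palmitate from proteins (-0.32 in null, -0.48 in wild-type mice), the mannosidase Man2b1 (-0.35 and -0.42) and Hexa, a subunit of hexosaminidase (-0.40 and -0.40). On the average of the genotypes 3 genes of this list rose, Galc (0.40), Pcyox1 (0.21), which is not a hydrolase gene, and Smpd1 (0.19). Of 8 cathepsin inhibitors 2 fell in each genotype and 0 rose, led by Serpina3n (-0.60 in null, -0.65 in wild-type mice) and the secreted cystatin Cst3 (-0.37 and -0.39).

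Of 18 genes for the complexes that dock the growth kinase mTORC1 on the lysosome, for which the pump is a known partner, 6 rose in null and 7 in wild-type mice and 0 fell, with medians of 0.175 and 0.166. Mtor itself (0.61 in null, 0.71 in wild-type mice), the scaffold gene Lamtor3 (0.27 and 0.24) and the GTPase gene Rragc (0.35 and 0.30) led. Rragb, which was dim (group means of 2.74 to 3.35), fell on the average of the genotypes (-0.53). Of 26 other lysosomal membrane proteins 2 rose and 3 fell in null mice and 4 rose and 3 fell in wild-type mice, with medians of 0.018 and 0.005. That is close to or below the shares of all genes above the median signal, 12.3% higher and 11.7% lower in null mice and 14.1% and 15.2% in wild-type mice. Among the 26 were Abca2 (0.40 in null, 0.32 in wild-type mice), Cd63 (-0.43 and -0.43) and Cd68 (-0.56 and -0.72), which is also a macrophage marker.

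Of 31 autophagy genes 4 rose and 1 fell in null mice and 2 rose and 2 fell in wild-type mice, with medians of 0.083 and 0.042 beside -0.003 and 0.009 over all genes. These counts are close to or below the shares of all genes above the median signal (12.3% higher and 11.7% lower in null mice, 14.1% and 15.2% in wild-type mice). The smallest p were those of the initiating kinase Ulk1 (0.33 in null, 0.32 in wild-type mice) and Gabarapl2 (0.24 and 0.30). Of 17 genes that sort enzymes to the lysosome, 1 rose and 1 fell in null mice and 2 rose and 1 fell in wild-type mice, again no more than those shares, with the sorting receptor Sorl1 at 1.16 in null and 0.95 in wild-type mice. Of 5 relatives and regulators of TFEB, 0 passed in null mice and 1 rose and 2 fell in wild-type mice. These were Zkscan3, described as a repressor of lysosomal genes (0.22 in null, 0.29 in wild-type mice), and the TFEB relatives Mitf (-0.22 and -0.43) and Tfec (-0.16 and -0.50). Tfec was dim, with group means of 3.84 to 4.34.

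**Figure D5:**
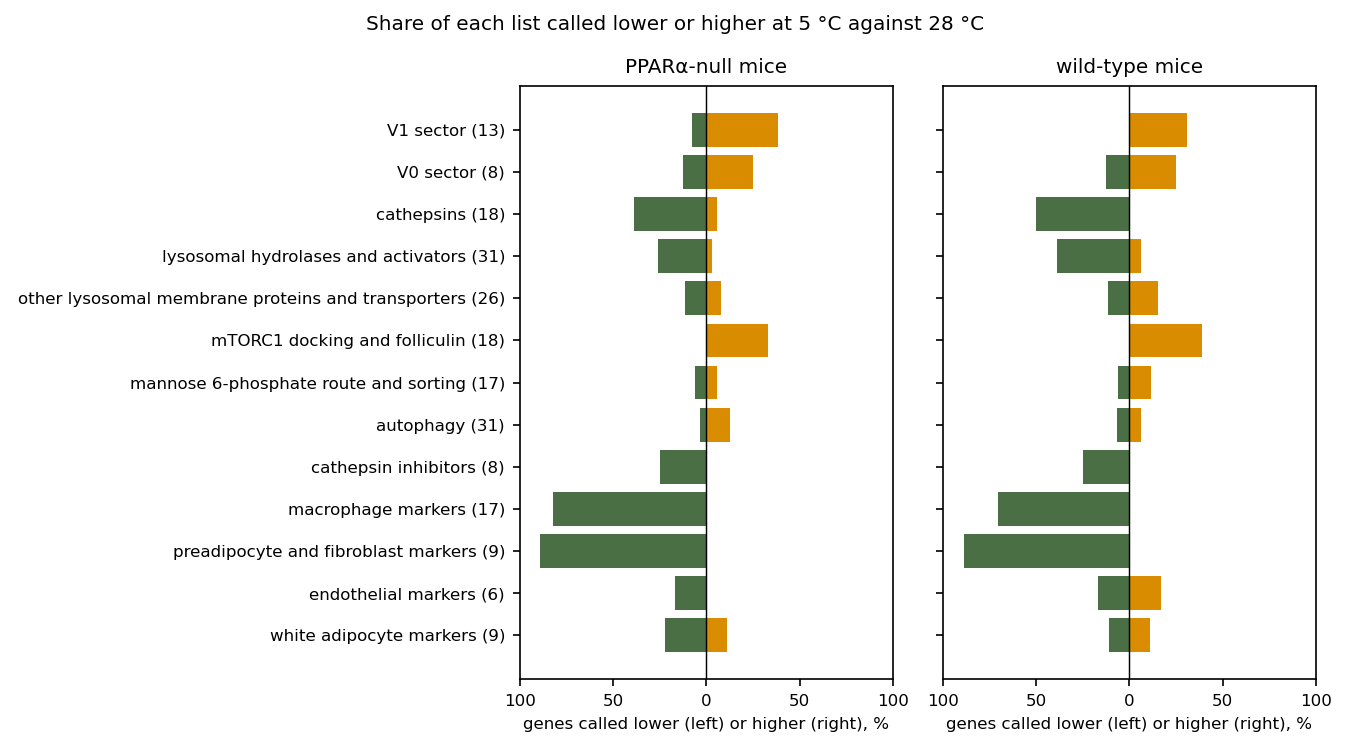
Share of each list's measured genes (number in brackets) that passed the test as lower (left) or higher (right) at 5 °C, in PPARα-null mice (left panel) and wild-type mice (right panel). V1 genes and mTORC1 docking genes lie mainly to the right, and cathepsins, hydrolases, macrophage and fibroblast markers to the left.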

How the data were processed

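Inguinal fat of 22 mice was measured on Affymetrix whole-transcript arrays. The deposited log2 values were made by the authors with RMA, per the submitters' processing notes (version not given in the sources used here). They were used with no further normalization. The 41345 probe sets comprised 23521 with 1 gene symbol, 1814 with more and 16010 without, and the brightest probe set stood for each of the 22180 genes. All 53 lysosomal genes had a RefSeq position (GRCm38.p6).

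The 4 groups, taken from the labels, were fitted together with limma 3.58.1 under R 4.3.3 (18 residual and 3.35 prior degrees of freedom), with Benjamini-Hochberg adjustment over all genes in each of 6 comparisons. The fit was tested on simulated data. The genes and the comparison lists were chosen with earlier results of these data known. In each role up to 4 genes with the smallest p in the average cold effect are given in full, with any called in a genotype comparison or against most of their role, and up to 3 genes of each other list by the same p. Figures used matplotlib 3.10.9. Alternatives were another scaling, leaving out dim genes, averaging probe sets by gene, other variance settings, array weights, fitting only the groups compared, replicate number as a block, and leaving out each array.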

Additional observations from a re-analysis of the deposited data

Results flagged for a closer look

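In 14 of 212 groups of 5 or 6 arrays, 1 mouse lay apart from the others of its group by Dixon's 95% critical value, and chance alone gives about 1 in 20 such groups. In null mice at 5 °C these were Ctso lowest in replicate 1 (log2 value 7.90), Atp6v1c1 highest in replicate 4 (8.24) and Ctsa lowest in replicate 4 (8.57). In wild-type mice at 5 °C they were Atp6v1h lowest in replicate 1 (7.43), Ctse lowest in replicate 3 (3.80) and Atp6ap1l highest in replicate 5 (2.62). In null mice at 28 °C, Ctsb was lowest in replicate 3 (12.14) and Atp6v1b1 lowest in replicate 4 (2.79). In wild-type mice at 28 °C, Ctsr was highest in replicate 2 (2.38), Atp6v1f (4.53) and Tfe3 (7.69) in replicate 3, Atp6v0b (9.18) and Lamp1 (10.85) in replicate 4, and Ctsj (3.13) in replicate 5.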

How the results depend on the processing

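Of 65 calls of single genes in the cold comparisons, 50 held under every setting run, 15 were lost under at least 1 setting and 0 reversed. Fitting only the groups compared left 5 genes higher in null mice instead of 9. Leaving out each array in turn gave 5 to 9 genes higher and 6 to 11 lower in null mice, 7 to 9 higher and 10 to 12 lower in wild-type mice, and 11 to 12 higher and 14 to 15 lower on average. The lowest null counts came without replicate 4 (5 higher) and replicate 1 (6 lower) of the null mice at 5 °C. The other alternatives gave 5 to 10 higher and 7 to 13 lower in null mice, 7 to 10 higher and 10 to 13 lower in wild-type mice, and 10 to 12 higher and 12 to 16 lower on average. Genotype and difference comparisons stayed at 0 calls under each setting. With array medians subtracted, the median cold effect of all genes was 0.033 in null and 0.058 in wild-type mice, beside -0.003 and 0.009 in the main fit.

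With the replicate number as a block, 58 of the 65 calls held and 7 were lost. The numbers do not pair the mice: over 21 same-numbered pairs the correlation of their deviations ran from -0.246 to 0.23, and 2 pairs exceeded 0.1.

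Dim probe sets limit the 18 genes below the median signal, Atp6v1f among them. Whole fat mixes cell types, and transcript signals say nothing of acidity or protease activity.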
